A study of Mus musculus with 4 samples.

Results

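The 10 genes described here are the Notch ligands Dll1, Dll4 and Jag1, the receptors Notch1, Notch2 and Notch3, and the target genes Hes1, Hey1, Hey2 and Heyl. They were taken as a list and matched by Ensembl gene ID, and 10 of 10 were found, each under 1 symbol, among the 27514 gene IDs that the gene tables of the 4 libraries share. The libraries are single-cell RNA-seq of GFP-positive cells of the Tbx1 lineage from Swiss Webster mouse embryos at embryonic day (E) 8.5 and 9.5. Control embryos (Ctrl) were Tbx1Cre/+;Rosa26-GFPflox/+ and conditional mutants (cKO) were Tbx1Cre/flox;Rosa26-GFPflox/+. Cre was knocked into Tbx1, so a control embryo had 1 working copy of the gene, and in the mutants the floxed copy was recombined by the same Cre that switched on GFP. The upper part of the body was taken at E8.5, and the pharyngeal apparatus with the heart at E9.5, where the study's summary of samples also lists the back. Embryos were pooled, and at each stage the Ctrl pool held more embryos than the cKO pool and covered another range of somite numbers. Each combination of genotype and stage is 1 library, so a difference between libraries has no replicate check and carries no p-value.

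In the GRCm38 coordinates of RefSeq the ligand genes are Dll1 (ENSMUSG00000014773, chr17:15367354-15376932), Dll4 (ENSMUSG00000027314, chr2:119325784-119335666) and Jag1 (ENSMUSG00000027276, chr2:137081451-137116520). The receptor genes are Notch1 (ENSMUSG00000026923, chr2:26457902-26503822), Notch2 (ENSMUSG00000027878, chr3:98013538-98150367) and Notch3 (ENSMUSG00000038146, chr17:32120820-32166896). The target genes are Hes1 (ENSMUSG00000022528, chr16:30065357-30067796), Hey1 (ENSMUSG00000040289, chr3:8663359-8667038), Hey2 (ENSMUSG00000019789, chr10:30832359-30842783) and Heyl (ENSMUSG00000032744, chr4:123233556-123249870).

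Notch receptors are bound by ligands on a neighbouring cell, which leads to cleavage of the receptor. The released intracellular part enters the nucleus, joins the DNA-binding protein RBPJ and turns on genes of the Hes and Hey families, which encode transcriptional repressors. In the embryo the pathway is known for arterial identity of the endothelium, for the choice between neuroblast and progenitor, for segmentation of the somites and for the outflow tract of the heart, where JAG1 and NOTCH2 are linked to Alagille syndrome.

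Levels are unique molecular identifiers (UMIs) of a gene for each 1000000 UMIs that these cells held over the shared genes (UPM). The kit tags the 3′ end of each molecule once, and levels are compared between cells for 1 gene and not between genes. Cells were assigned to groups by counting the markers of a cell type that had a UMI, and no Notch gene listed here was used for this. The intervals in parentheses are exact 95% intervals for counting error only: Poisson for a level, conditional binomial for a log2 ratio and Clopper-Pearson for a share. A ratio is given for groups of at least 30 cells in both libraries, is counted where both libraries together hold at least 20 UMIs, and is called changed where it is at least 2-fold either way. Orders of groups by level cover groups of at least 30 cells in the library, and leave out smaller groups unless these are named. Beside each count of changed genes stands the share of all counted genes that were changed in the same cells, and no count of this kind is a statistical test.

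The libraries held 1434 (Ctrl E8.5), 1090 (cKO E8.5), 5453 (Ctrl E9.5) and 6266 cells (cKO E9.5). The median UMIs per cell were 17223, 23883, 16567 and 15888 in this order, so at E8.5 the cKO library was the deeper. Pairs of libraries shared 2 to 55 cell barcodes. The cKO E9.5 library was counted on a gene table of 31053 genes and the other libraries on one of 27998, so that at E9.5 genotype, library and gene table cannot be told apart. The stage likewise goes with the dissection and the library. Tbx1 stood at 86.4 (Ctrl E8.5), 118 (cKO E8.5), 103 (Ctrl E9.5) and 134 UPM (cKO E9.5) over all cells, which is not lower in the libraries labelled cKO. The part of the gene that is deleted is not given in the sources used here and the kit reads the 3′ end, so these UMIs do not check the genotype, and Ctrl and cKO are used as the labels of the libraries. The median log2 ratio of all counted genes lay between -0.26 and -0.18 in the groups compared by genotype at E9.5, between -0.01 and 0.05 at E8.5, and between 0.23 and 0.31 for E9.5 against E8.5. Scaling by TMM or median-of-ratios factors raised the E9.5 genotype ratios by 0.18 to 0.27 and lowered the stage ratios by 0.18 to 0.36 on the log2 scale.

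At E9.5 the endothelial gate held 417 cells in Ctrl and 120 in cKO, the epithelial gate 740 and 193, the cardiomyocyte gate 126 and 77, the gate for branchiomeric muscle (BrM) progenitors 288 and 187, the anterior second heart field (aSHF) gate 185 and 101, the posterior second heart field (pSHF) gate 48 and 82, and the mesenchyme gate 2176 and 3164. Over the 4 libraries together, 4 to 8 of the 10 genes with the largest excess in each of these gates were markers of its own list. Cells were placed by UMIs of these same markers, so the count is not an independent check of a gate. A gate on Arg1, Rdh10 and Vamp8 held 270 and 539 cells at E9.5 and is called by its genes, because its leading genes also held 4 markers of the pSHF list. At E8.5 the endothelial gate held 69 and 52 cells, the BrM gate 44 and 31, the aSHF gate 73 and 82, the Arg1/Rdh10/Vamp8 gate 207 and 230, the mesenchyme gate 136 and 246 and the somitic gate 64 and 45. No gate was reached by 50.9% of Ctrl and 29.0% of cKO cells at E8.5, and several gates by 15.1% and 30.5%. The mesenchyme gate took 9.48% and 22.6% of these cells. Gates count markers with a UMI and depth differed at E8.5, so they may select cells differently in these libraries.

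At E9.5 the 3 ligands had their highest levels in different groups, while Dll4 and Dll1 were both found in endothelial and neuroblast-gated cells. Dll4, the ligand of arterial endothelium, was concentrated in endothelial cells. In endothelial-gated cells it stood at 5.5 UPM (8 UMIs) in Ctrl E8.5, 8.38 UPM (11 UMIs) in cKO E8.5, 20.01 UPM (170 UMIs) in Ctrl E9.5 and 11.2 UPM (24 UMIs) in cKO E9.5. The endothelial gate held 72.3% of all Dll4 UMIs of the Ctrl E9.5 library in 7.65% of its cells, and 60% in 1.92% of the cells of cKO E9.5. Among groups of at least 30 cells BrM-gated cells came next in Ctrl E9.5 with 4.19 UPM (interval 2.71 to 6.18), an interval below the endothelial one and above the 1.22 UPM of the Arg1/Rdh10/Vamp8 cells. The 28 neuroblast-gated cells of Ctrl E9.5 held 8 Dll4 UMIs, 16.3 UPM (interval 7.02 to 32.0), which is not resolved from the endothelial level, and the 100 of cKO E9.5 held 2. Cells thinned to 10000 UMIs had a Dll4 UMI in 15.5% (60 of 388) of the endothelial group, in 3.21% (9 of 280) of the BrM group and in 0 of 709 epithelial cells, where a floor of 3 cells would be 0.423%. Before thinning, the epithelial cells of Ctrl E9.5 held 2 Dll4 UMIs. The 22 BrM cells with Dll4 held 25 of its UMIs, at most 3 in a cell, and a single UMI over 6 defining endothelial markers. The summed level of the 12 endothelial markers was 111 UPM in BrM cells and 3885 UPM in endothelial cells of the same library.

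Dll1, which is known from neurogenesis and somites, was found in few cells. In neuroblast-gated cells it stood at 16.3 UPM (interval 7.02 to 32.0) in the 28 cells of Ctrl E9.5 and at 10.7 UPM (interval 6.88 to 16.0) in the 100 of cKO E9.5. Neural progenitor-gated cells of Ctrl E9.5 followed at 11.2 UPM (interval 5.14 to 21.4), not resolved from the neuroblasts. Epithelial cells held 3.89 UPM (56 UMIs) in Ctrl and 7.92 UPM (30 UMIs) in cKO, and endothelial cells 3.88 UPM (33 UMIs) and 7.91 UPM (17 UMIs). Epithelial and endothelial levels were not resolved from each other in either library, while in Ctrl both lay above the 0.670 UPM of BrM cells. Mesenchyme held 11 Dll1 UMIs in 2176 cells in Ctrl and 22 in 3164 cells in cKO, and pSHF cells held 0 in both. At E8.5, among groups of at least 30 cells, Dll1 was highest in endothelial cells, at 2.06 UPM in Ctrl (3 UMIs) and 4.57 UPM in cKO (6 UMIs). Neither value was resolved from the next group.

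Jag1, the ligand of the outflow tract and of sensory epithelium, was broader. Cardiomyocytes held 69.8 UPM of Jag1 in Ctrl E9.5 against 57.0 UPM in cKO E9.5, pSHF cells 68.2 and 31.8, and epithelial cells 53.4 and 28.0. In Ctrl, pSHF cells were not resolved from cardiomyocytes or from epithelial cells. The cardiomyocyte interval (58.7 to 82.3) lay above the epithelial one (49.7 to 57.3). The next group, aSHF at 36.3 UPM, lay apart from the epithelial level. Endothelial cells were lowest with 2.94 UPM (interval 1.90 to 4.34) in Ctrl E9.5. After thinning, Jag1 was seen in 42.5% (48 of 113) of Ctrl E9.5 cardiomyocytes and in 2.32% (9 of 388) of Ctrl E9.5 endothelial cells, which is the reverse of the order for Dll4.

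**Figure D1:**
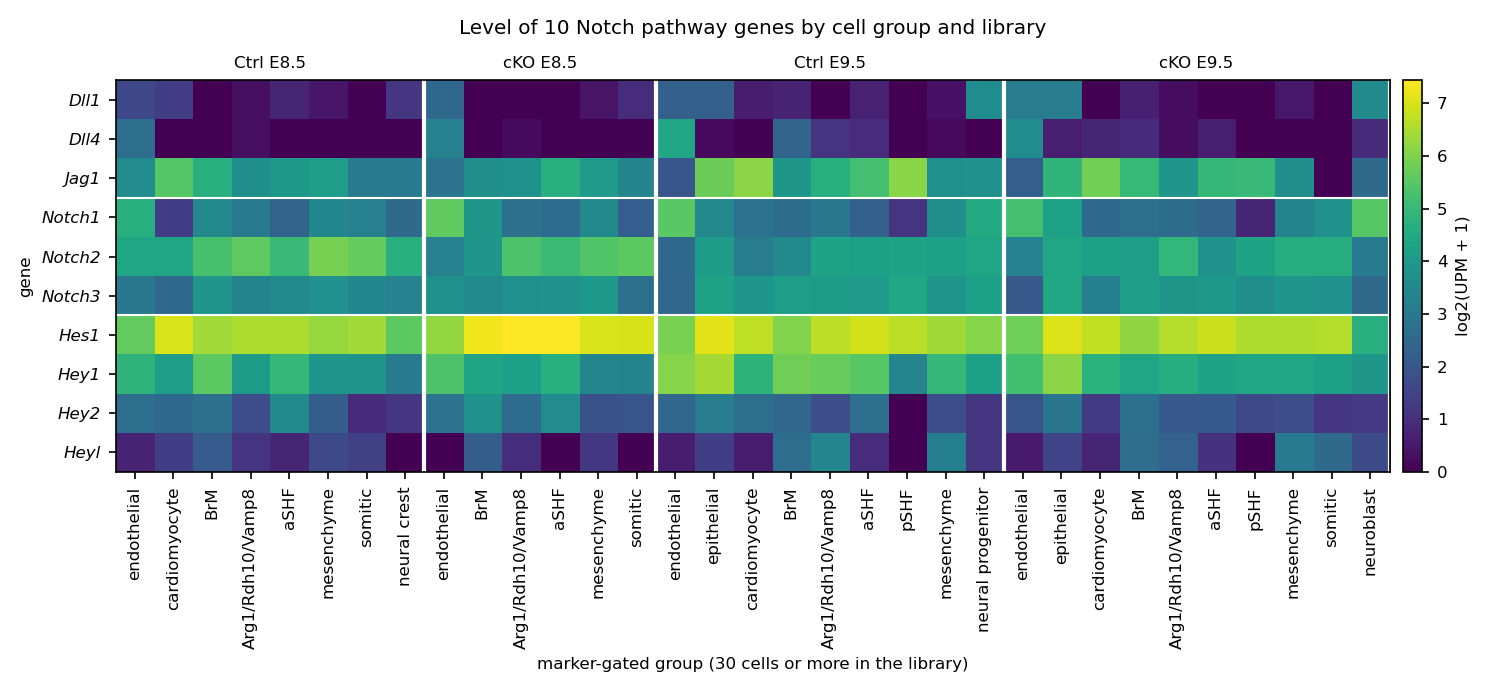
Level of each of the 10 genes (UPM) in marker-gated groups of at least 30 cells, by library. In Ctrl E9.5 Dll4 (20.01 UPM) and Notch1 (45.3 UPM) peak in endothelial cells, Jag1 in cardiomyocytes and pSHF cells, Notch2 is highest in the E8.5 groups, and Hes1 is found in every group.

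The receptors divided the groups in another way. Notch1, a receptor known from endothelium and neural progenitors, stood in endothelial cells at 24.7 UPM (36 UMIs) in Ctrl E8.5, 48.0 UPM (63 UMIs) in cKO E8.5, 45.3 UPM (385 UMIs) in Ctrl E9.5 and 36.8 UPM (79 UMIs) in cKO E9.5. In Ctrl E9.5 the endothelial interval lay above that of neural progenitor cells at 22.5 UPM, which lay above mesenchyme at 12.1 UPM. Neuroblast-gated cells stood at 42.7 UPM (interval 26.4 to 65.3) in the 28 cells of Ctrl E9.5 and at 44.7 UPM (interval 36.4 to 54.4) in cKO E9.5, not resolved from the endothelial cells in either library.

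Notch2, unlike Notch1, stood low in the endothelium, at 19.9, 8.38, 4.59 and 8.84 UPM in the order used above. In each of the 4 libraries this was the lowest value among the groups of at least 30 cells other than neuroblasts. In no library was it resolved from the next group. The highest Notch2 levels in groups of at least 30 cells were in Ctrl E8.5. They were 59.6 UPM (167 UMIs) in mesenchyme, 50.2 UPM (60 UMIs) in somitic cells and 47.3 UPM (199 UMIs) in Arg1/Rdh10/Vamp8 cells, with overlapping intervals. The 21 pSHF-gated cells of that library lay higher, at 91.7 UPM (interval 64.9 to 126), with Notch2 UMIs in 8 cells. Notch3, known from mural cells around vessels, stood over all cells at 10.7, 13.4, 14.1 and 13.4 UPM, and in Ctrl E9.5 the group levels ran from 4.47 UPM in endothelial cells to 21.2 UPM in pSHF cells. The leading neighbours in that order were not resolved. In cKO E9.5 the neuroblast-gated cells, at 4.92 UPM (interval 2.46 to 8.80), lay below mesenchyme at 13.9 UPM and epithelial cells at 20.6 UPM.

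Hes1, a repressor that holds progenitors undifferentiated and that other pathways also drive, was found in every group. Its Ctrl E9.5 levels ran from 60.5 UPM in endothelial cells to 139 UPM in epithelial cells, and the lowest value of the series in a group of at least 30 cells was 24.1 UPM in cKO E9.5 neuroblasts. Hey1, which marks arteries and parts of the atria and pharynx, was highest in epithelial cells at 84.8 UPM (interval 80.1 to 89.7) in Ctrl E9.5, apart from endothelial cells at 67.1 UPM (interval 61.7 to 72.8). BrM cells at 56.0 UPM and Arg1/Rdh10/Vamp8 cells at 51.7 UPM followed, with overlapping intervals. Heyl, another member of the Hey family, was highest in Ctrl E9.5 in mesenchyme and Arg1/Rdh10/Vamp8 cells, at 8.16 and 9.53 UPM. Mesenchyme held 61.7% of its Ctrl E9.5 UMIs in 39.9% of the cells. BrM cells, at 5.36 UPM (interval 3.67 to 7.57), were not resolved from mesenchyme. Hey2, which is known from ventricle and artery, had 344 UMIs in all cells of the Ctrl E9.5 library and 312 in those of cKO, and its highest Ctrl E9.5 level was 7.79 UPM in epithelial cells.

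RBPJ is known to bind the letters GTGGGAA, which are read from the opposite strand as TTCCCAC. The region before the start site was searched on both strands in RefSeq promoter windows (GRCm38.p6, 250 bases before to 50 after each start) for the members, of which 7 matched by symbol. The letters were found in 6.38% of all 32851 windows. Among the members they were found in Hey2, with 1 match before the start and 1 after it, and of the other pathway targets in Hes5, with 2 matches in opposite directions that have 136 bases between them. A share of 0.256% of all windows held 2 or more matches. The windows of Dll1, Dll4, Jag1, Notch1, Notch2, Notch3 and the target Nrarp held none. The 250 bases before the start of Hey2 (chr10:30842784-30843033, minus strand) and of Hes5 (chr4:154960673-154960922, plus strand) are shown 5′ to 3′ with the matches in capitals, since they are the windows in which the RBPJ letters were found. No window of Hes1, Hey1 or Heyl was searched. A match is a description of the letters and not a site in use.
Hey2: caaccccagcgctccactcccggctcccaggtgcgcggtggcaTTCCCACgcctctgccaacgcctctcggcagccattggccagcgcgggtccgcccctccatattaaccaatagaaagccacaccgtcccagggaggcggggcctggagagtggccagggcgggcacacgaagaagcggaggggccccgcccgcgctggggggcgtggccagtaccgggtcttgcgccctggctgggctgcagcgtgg
Hes5: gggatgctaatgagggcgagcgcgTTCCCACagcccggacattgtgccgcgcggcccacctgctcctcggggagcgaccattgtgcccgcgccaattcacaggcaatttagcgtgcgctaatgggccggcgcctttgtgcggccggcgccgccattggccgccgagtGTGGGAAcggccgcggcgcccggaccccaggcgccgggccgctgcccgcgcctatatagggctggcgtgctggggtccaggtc

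The comparison of cKO with Ctrl at E9.5 asks how the ligands, receptors and targets differ between the libraries labelled as Tbx1 mutant and control. Hey1 was lower in cKO in BrM, aSHF and Arg1/Rdh10/Vamp8 cells, and Dll4 was lower in BrM cells and over all cells. Jag1 was lower in pSHF cells and higher in BrM cells, Dll1 was higher in endothelial and epithelial cells, and Notch2 was higher in cardiomyocytes. In all, 11 of 61 pairs of gene and group counted were changed, 5 upward and 6 downward. By group these were 1 of 9 genes in endothelial cells, where 8.66% of all counted genes were changed, 1 of 9 in epithelial cells (8.86% of all genes), 1 of 5 in cardiomyocytes (9.61%), 3 of 9 in BrM cells (10.7%), 2 of 8 in Arg1/Rdh10/Vamp8 cells (9.47%), 1 of 7 in aSHF cells (8.37%), 2 of 5 in pSHF cells (12%) and 0 of 9 in mesenchyme (8.39%). Over all cells it was 1 of 10, with 13.4% of all genes.

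Hey1 in BrM cells stood at 56.0 UPM (334 UMIs) in Ctrl and 20.1 UPM (72 UMIs) in cKO, a log2 ratio of -1.48 (interval -1.86 to -1.10). It stayed past 2-fold in every alternative, at -1.92 to -1.22 over 10 alternatives. In the BrM cells that also held Myf5 or Myod1, genes that commit cells to muscle, Hey1 stood at 47.3 UPM in the 89 Ctrl cells and 12.8 UPM in the 48 cKO cells. At equal depth the share of BrM cells with a Hey1 UMI was 34.3% (96 of 280) in Ctrl and 15.2% (27 of 178) in cKO. The median UMIs per cell in the BrM group were 19877 in Ctrl and 18809 in cKO. Hey1 was lower in level and in share of cells.

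In aSHF cells Hey1 stood at 44.3 UPM (144 UMIs) in Ctrl and 18.5 UPM (34 UMIs) in cKO, a log2 ratio of -1.26 (interval -1.85 to -0.71) that ran from -1.89 to -1.08 over 9 alternatives. In Arg1/Rdh10/Vamp8 cells it stood at 51.7 UPM (255 UMIs) and 23.9 UPM (254 UMIs), a ratio of -1.11 (interval -1.37 to -0.86). That value fell under 2-fold with TMM factors (-0.87), with median-of-ratios factors (-0.86), with gating after thinning (-0.99) and without the 5% of cells of highest UMI total (-0.96). Endothelial cells were just short of 2-fold at -0.92 (interval -1.29 to -0.58), and mesenchyme at -0.52, epithelial cells at -0.29 and cardiomyocytes at -0.06 lay nearer to the median of all genes. With TMM and median-of-ratios factors the cardiomyocyte value turned above 0 (0.13 and 0.15). The pSHF cells went the other way, from 8 to 29 UMIs and 1.12 (interval -0.04 to 2.46), an interval that holds 0, and to 0.60 with gating after thinning. Hey1 in cKO was changed downward in 3 of 8 groups, and over all cells it stood at 45.5 and 23.2 UPM. The epithelial gate held 13.6% of Ctrl and 3.08% of cKO cells, and the endothelial gate 7.65% and 1.92%. Cell composition and level cannot be told apart in the sum over all cells.

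**Figure D2:**
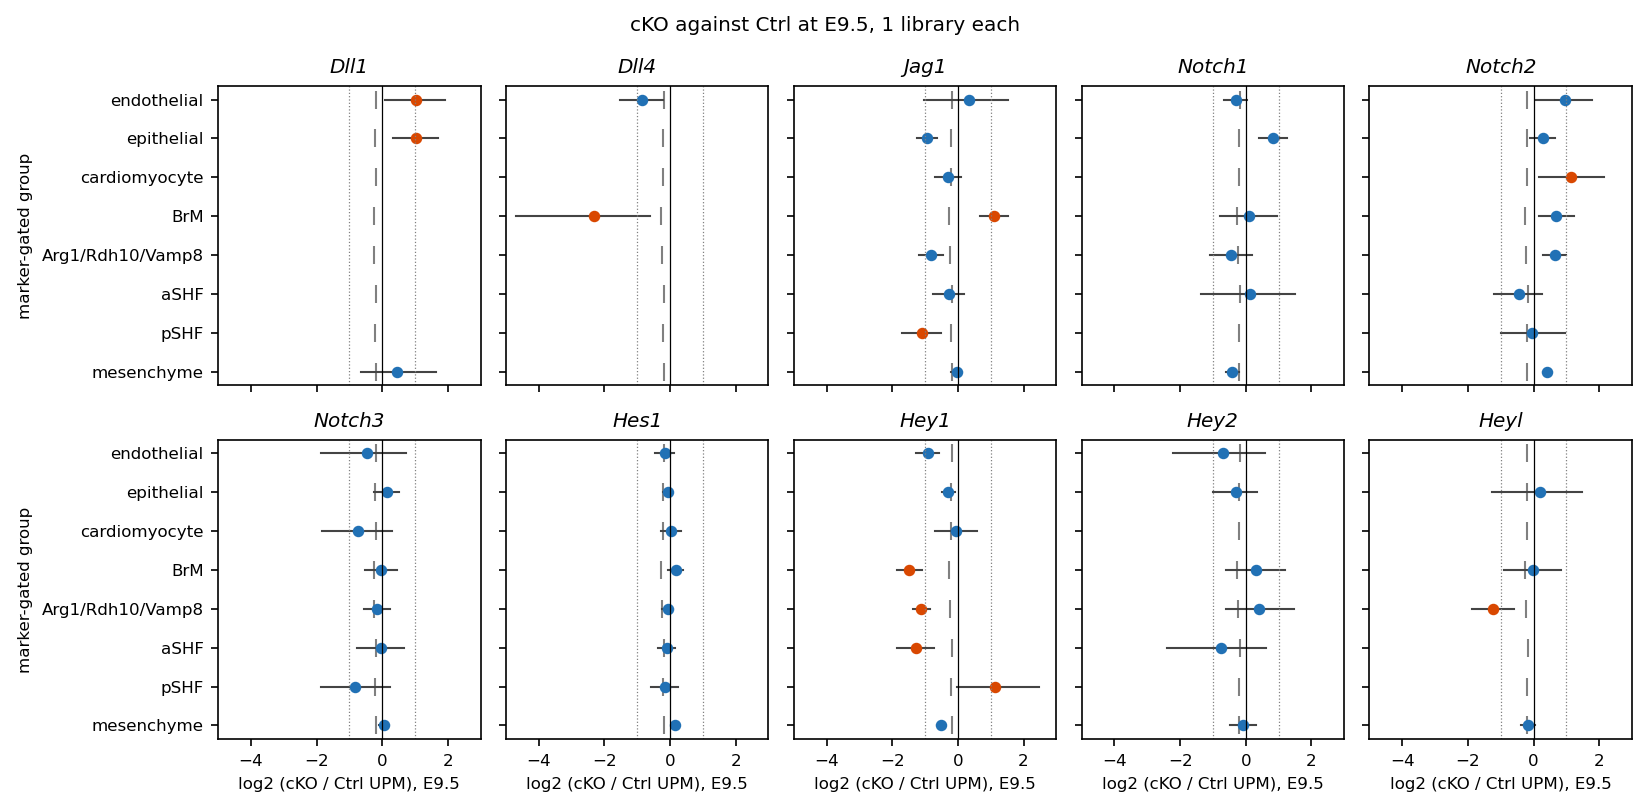
log2 ratio of cKO to Ctrl at E9.5 for the 10 genes in each marker-gated group; horizontal lines are 95% intervals for counting error, dotted lines mark 2-fold, the grey tick is the median of all counted genes, and orange marks a ratio of at least 2-fold. Hey1 lies past 2-fold downward in BrM (-1.48), aSHF (-1.26) and Arg1/Rdh10/Vamp8 cells (-1.11), and Jag1 lies on opposite sides in pSHF and BrM cells.

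Dll4 over all cells stood at 2.49 UPM (235 UMIs) in Ctrl and 0.382 UPM (40 UMIs) in cKO, a log2 ratio of -2.71 (interval -3.23 to -2.22). The endothelial-gated share of cells was 7.65% and 1.92% in the same libraries, and fewer endothelial cells and less Dll4 per cell cannot be told apart in this sum. Within endothelial cells the ratio was -0.84 (interval -1.52 to -0.22), and with endothelial cells left out, a choice made after seeing the data, Dll4 stood at 0.758 and 0.156 UPM. In BrM cells Dll4 had 25 UMIs in Ctrl and 3 in cKO, a ratio of -2.32 (interval -4.69 to -0.61). Leaving out the BrM cells with 2 or more endothelial markers other than Egfl7, Ramp2 and Kdr, also chosen after seeing the data, kept 286 and 185 cells and gave -2.31. The BrM ratio lay within -2.53 to -2.06 over 9 alternatives. Summed over the 12 endothelial markers, BrM cells held 111 UPM in Ctrl and 97.3 UPM in cKO.

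Jag1 differed in direction between groups. In BrM cells it stood at 14.2 UPM (85 UMIs) in Ctrl and 30.5 UPM (109 UMIs) in cKO, a log2 ratio of 1.10 (interval 0.67 to 1.52), and the share of BrM cells with a UMI at equal depth was 12.9% (36 of 280) and 23.6% (42 of 178). In pSHF cells it stood at 68.2 UPM (58 UMIs) and 31.8 UPM (45 UMIs), a ratio of -1.10 (interval -1.70 to -0.51). In the same pSHF cells the summed 12 cardiomyocyte markers stood at 883 UPM in Ctrl and 353 UPM in cKO (9 and 10 detected) and the summed 10 epithelial markers at 422 and 134 UPM (6 and 8 detected), and their part in the Jag1 value was not tested. Epithelial cells were at -0.93 (interval -1.24 to -0.64) and Arg1/Rdh10/Vamp8 cells at -0.82 (interval -1.18 to -0.46), where the ratio was -0.02 once cells that reached several gates were left out. Both changed values sat near the limit: the BrM ratio lay within 0.90 to 1.35 over 10 alternatives and the pSHF ratio within -1.48 to -0.60 over 9 alternatives. Mesenchyme was at -0.04 (interval -0.21 to 0.14).

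Dll1 stood higher in cKO in endothelial cells, at 1.03 (interval 0.09 to 1.91), and in epithelial cells, at 1.02 (interval 0.33 to 1.69), on 17 and 30 UMIs in cKO. With 1 marker fewer for the gate the endothelial value was 0.81, and with cells that reached several gates left out the epithelial value was 0.77. Notch1 was higher in epithelial cells, with 10.3 UPM in Ctrl and 18.2 in cKO and a ratio of 0.82 (interval 0.39 to 1.25), and lower in mesenchyme, at -0.41 (interval -0.59 to -0.22). The neuroblast gate held 28 Ctrl cells and 100 cKO cells at E9.5, whose part in these values was not tested. The summed level of the 10 neuroblast markers differed in the same gates, with 6.47 UPM in Ctrl and 48.4 UPM in cKO in endothelial cells (6 and 8 markers detected), and 28.2 and 90.6 UPM in epithelial cells (10 of 10 detected in both). Notch1 in endothelial cells was at -0.30 (interval -0.67 to 0.05).

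Notch2 was higher in cKO in most groups. In Arg1/Rdh10/Vamp8 cells it stood at 18.6 UPM (92 UMIs) in Ctrl and 29.1 UPM (309 UMIs) in cKO, in mesenchyme at 17.7 UPM (672 UMIs) and 23.8 UPM (1307 UMIs), and in BrM cells at 10.6 UPM (63 UMIs) and 17.0 UPM (61 UMIs). The ratios were 0.64 (interval 0.30 to 0.99), 0.42 (interval 0.29 to 0.56) and 0.69 (interval 0.16 to 1.22), each interval above 0. Cardiomyocytes had the changed value, 1.13 (interval 0.17 to 2.14) on 16 and 25 UMIs, which was 0.42 without the 5% of cells of highest UMI total. Notch3 was under 2-fold in all 8 groups, and its ratios ran from -0.82 in pSHF to 0.14 in epithelial cells. Hes1 ratios ran from -0.17 to 0.18 over the 8 groups, with 0.15 (interval 0.09 to 0.22) in mesenchyme as the only interval without 0. Heyl was lower in Arg1/Rdh10/Vamp8 cells, at 9.53 UPM (47 UMIs) and 4.05 UPM (43 UMIs) and -1.24 (interval -1.87 to -0.61), a call that 4 of 9 alternatives brought under 2-fold, and at -0.17 in mesenchyme.

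At E8.5 the same comparison was led by Hes1, which was higher in cKO in each of the 6 groups, though under 2-fold in each. Over all cells Hes1 stood at 79.3 UPM (2000 UMIs) in Ctrl and 141 UPM (3638 UMIs) in cKO, a log2 ratio of 0.83 (interval 0.76 to 0.91). The ratio was 0.94 (interval 0.64 to 1.24) in aSHF, 0.90 (interval 0.73 to 1.07) in Arg1/Rdh10/Vamp8, 0.90 (interval 0.47 to 1.33) in BrM, 0.77 (interval 0.55 to 1.0) in mesenchyme, 0.60 (interval 0.14 to 1.06) in endothelial and 0.58 (interval 0.20 to 0.97) in somitic cells. Hes1 was thus higher in each group by more than counting error: all 6 intervals lie above 0, against medians of all genes no higher than 0.05. Over the 10 alternatives the all-cell ratio lay between 0.78 and 0.85. At equal depth 49.7% (645 of 1299) of Ctrl cells and 63.5% (639 of 1006) of cKO cells had a Hes1 UMI. A list of 11 immediate early and heat shock genes, added after seeing the data, had 2 of 10 counted genes above 0 over all cells and a median of -0.20. Their ratios ran from -1.90 to 1.01, with 1 gene changed upward and 2 downward, beside 4.22% of all genes. By group the median of the list ran from -0.18 in Arg1/Rdh10/Vamp8 cells to 0.21 in aSHF cells. Its part in the Hes1 values was not tested.

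Counted by the 2-fold rule, 5 of 35 pairs of gene and group were changed at E8.5: 1 of 6 genes in endothelial cells (5.9% of all genes), 3 of 6 in BrM cells (6.76%), 1 of 7 in Arg1/Rdh10/Vamp8 cells (4.25%) and 0 in aSHF (of 6, 6.07%), mesenchyme (of 7, 4.59%) and somitic cells (of 3, 5.04%). Over all cells it was 0 of 10, with 4.22% of all genes. The changed genes of BrM cells were all lower in cKO. Hey1 stood there at 46.6 UPM (41 UMIs) in Ctrl and 19.2 UPM (16 UMIs) in cKO, a ratio of -1.28 (interval -2.21 to -0.41). Notch2 stood at 37.5 UPM (33 UMIs) and 14.4 UPM (12 UMIs), a ratio of -1.38 (interval -2.47 to -0.39). Jag1 stood at 25 UPM (22 UMIs) and 12 UPM (10 UMIs), a ratio of -1.06 (interval -2.30 to 0.08) that holds 0. These rest on 44 and 31 cells.

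Hey1 in BrM cells was past 2-fold and lower in cKO at both stages, with Ctrl at 46.6 and 56.0 UPM and cKO at 19.2 and 20.1 UPM. This holds for no other gene and group counted at both stages. Few pairs allow the comparison. Of those changed at E9.5, only Hey1 in BrM, aSHF and Arg1/Rdh10/Vamp8 cells and Jag1 in BrM cells were also counted at E8.5. In Arg1/Rdh10/Vamp8 and aSHF cells the E8.5 ratios of Hey1 were 0.17 (interval -0.28 to 0.64) and -0.29 (interval -0.91 to 0.34), both with 0 inside the interval, and the difference between stages was not tested. Hes1 in the same BrM cells was at 83.0, 155, 64.3 and 72.7 UPM, so that at E8.5 the cKO library held more Hes1 and less Hey1. Endothelial cells of cKO E8.5 held less Notch2, at -1.25 (interval -2.40 to -0.21), which was -0.84 with 1 marker fewer and -0.85 with 1 more, and more Notch1, at 0.96 (interval 0.34 to 1.59), and Hey2 in Arg1/Rdh10/Vamp8 cells went from 10 to 32 UMIs, a ratio of 1.09 (interval 0.03 to 2.28) that was 0.55 with 1 marker fewer.

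**Figure D3:**
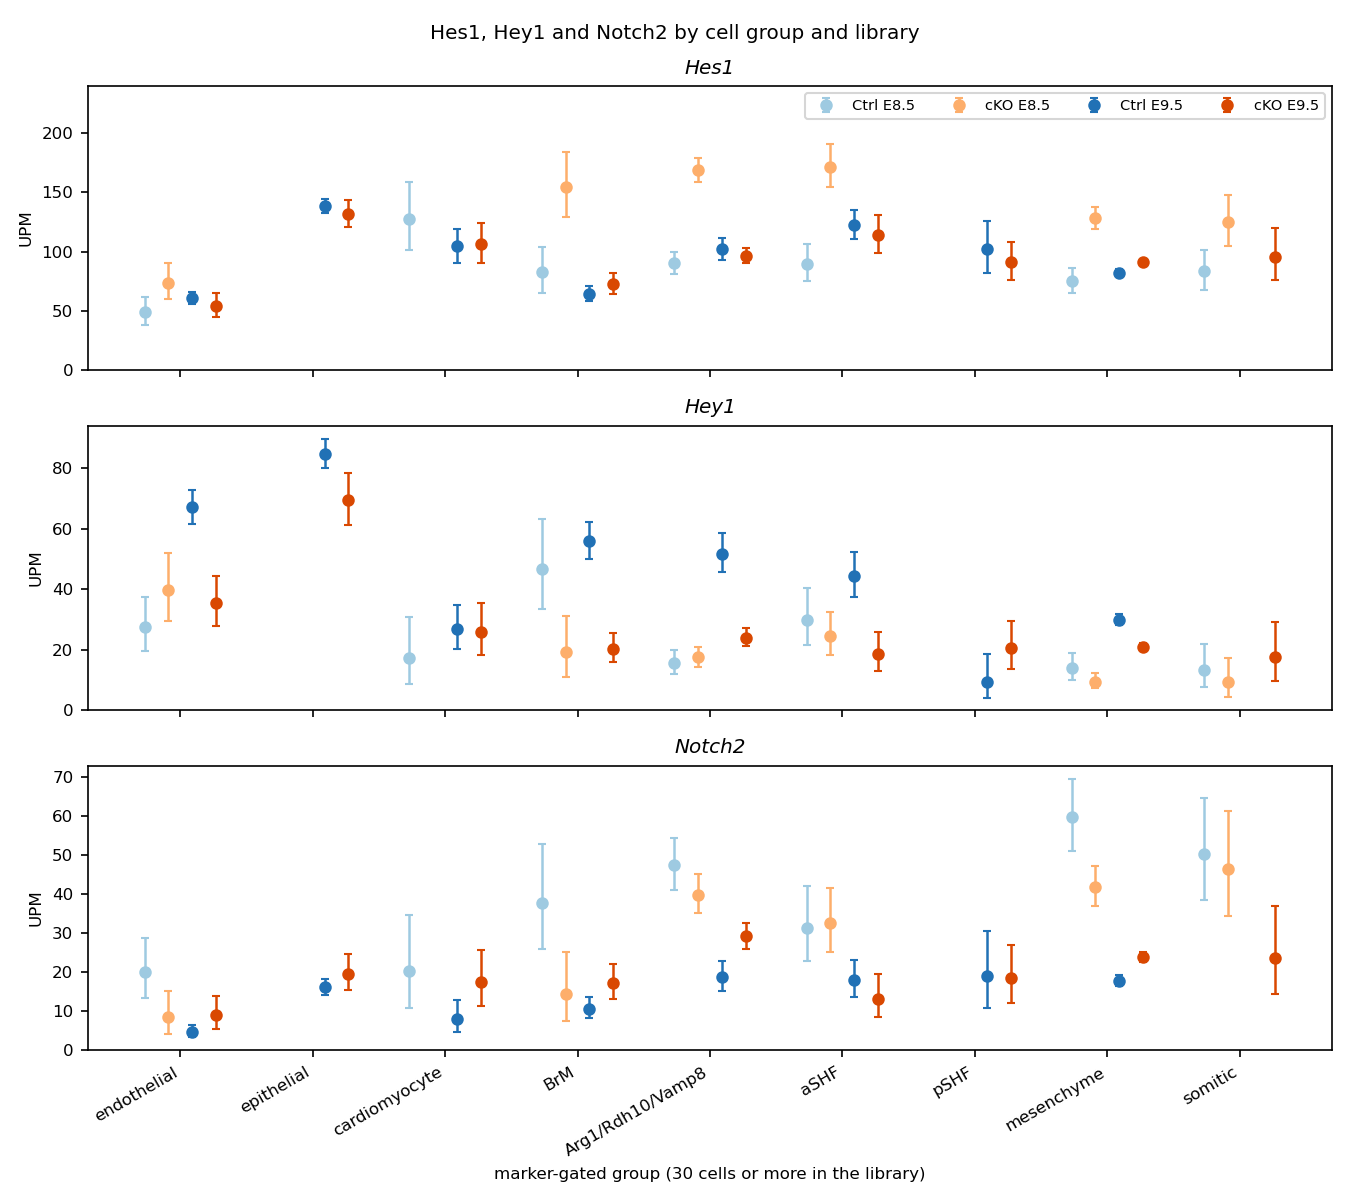
Levels (UPM) of Hes1, Hey1 and Notch2 by marker-gated group and library, with exact 95% Poisson intervals; groups under 30 cells in a library are not drawn. Hes1 is higher in cKO E8.5 than in Ctrl E8.5 in the 6 groups drawn for both, Hey1 is lower in cKO E9.5 in BrM, Arg1/Rdh10/Vamp8 and aSHF cells, and Notch2 is lower in Ctrl E9.5 than in Ctrl E8.5 in each group drawn for both.

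Between the stages, in Ctrl embryos, Notch2 was lower at E9.5 in each of the 6 groups, and Hey1 was higher with an interval above 0 in 4 of 6 groups, Heyl in Arg1/Rdh10/Vamp8 cells and mesenchyme, and Dll4 in endothelial cells. The Hey1 ratios of aSHF cells and cardiomyocytes, 0.57 and 0.64, lay nearer to their medians of all genes, 0.29 and 0.28. Over the alternatives they fell to 0.28 and 0.36 at the lowest. Hey1 in BrM cells, the highest Hey1 level among Ctrl E8.5 groups of at least 30 cells, was at 0.26 (interval -0.21 to 0.77), under the median of all genes, and Heyl there was at 0.65 (interval -1.02 to 3.00). Notch2 went from 44.0 to 15.3 UPM over all cells, a log2 ratio of -1.53 (interval -1.64 to -1.41). In mesenchyme the ratio was -1.75 (interval -2.0 to -1.50), in BrM cells -1.83 (interval -2.46 to -1.18), in endothelial cells -2.12 (interval -2.85 to -1.37), in cardiomyocytes -1.35 (interval -2.50 to -0.18), in Arg1/Rdh10/Vamp8 cells -1.34 (interval -1.72 to -0.98) and in aSHF cells -0.81 (interval -1.40 to -0.22). The Arg1/Rdh10/Vamp8 value was -0.97 once cells that reached several gates were left out, and the cardiomyocyte value was -2.39 and the aSHF value -0.21 with other marker numbers. Each interval lies below 0, while the median of all genes lay above it. In the cKO libraries, which are not part of this ratio, Notch2 was at 34.9 and 23.0 UPM over all cells.

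By the 2-fold rule, 15 of 45 pairs were changed between the stages: 4 of 9 genes in endothelial cells (17.4% of all genes), 2 of 5 in cardiomyocytes (18.3%), 1 of 9 in BrM cells (19.7%), 4 of 8 in Arg1/Rdh10/Vamp8 cells (14.8%), 1 of 6 in aSHF cells (15.8%) and 3 of 8 in mesenchyme (18.4%). Over all cells it was 5 of 10, with 20.8% of all genes. In endothelial cells Dll4 went from 5.5 to 20.01 UPM, at 1.86 (interval 0.85 to 3.1) and at 3.34 with gating after thinning. Hey1 went from 27.5 to 67.1 UPM, at 1.29 (interval 0.82 to 1.79). Jag1 went the other way there, from 11 to 2.94 UPM, at -1.90 (interval -2.86 to -0.90). Notch1 in the same cells was at 0.87 (interval 0.38 to 1.41).

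In Arg1/Rdh10/Vamp8 cells Hey1 went from 15.5 to 51.7 UPM, at 1.74 (interval 1.34 to 2.16) and at 2.76 once cells that reached several gates were left out. Heyl went from 5 to 47 UMIs, at 3.00 (interval 1.68 to 4.69). In mesenchyme Hey1 was at 1.10 (interval 0.64 to 1.60) and Heyl at 1.93 (interval 0.79 to 3.39), which ran from 1.15 to 2.71 over 9 alternatives. The Hey1 value fell under 2-fold with TMM factors (0.89) and median-of-ratios factors (0.85). Jag1 was higher at E9.5 in aSHF cells, at 1.31 (interval 0.63 to 2.06), which was 0.64 with 1 marker fewer and 0.99 with gating after thinning. It was also higher in Arg1/Rdh10/Vamp8 cells, at 1.02 (interval 0.53 to 1.53), which turned to -0.15 once cells that reached several gates were left out. Hes1 differed little by stage, at 0.20 (interval 0.13 to 0.27) over all cells, and its sign turned with both other scalings, to -0.17 at the lowest. Dll4 in BrM cells had 0 UMIs in both E8.5 libraries, and against the floor of 3 UMIs the log2 ratio in Ctrl was at least 0.30. Notch3 was changed in cardiomyocytes, on 3 and 28 UMIs, at 1.57 (interval -0.13 to 3.93), which was 0.69 as a mean over cells.

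Within the endothelium, cells with a Dll4 UMI stood apart. They were 100 of 417 cells in Ctrl E9.5 (24.0%, interval 19.96 to 28.4) and 17 of 120 in cKO E9.5 (14.2%, interval 8.47 to 21.7), with median UMIs per cell of 18692 against 20039 without Dll4 in Ctrl. In Ctrl, Hey1 stood at 199 against 25.3 UPM in cells with and without Dll4, a log2 ratio of 2.98, Hey2 at 12.7 against 1.86 UPM and Hes1 at 90.9 against 50.8 UPM. In cKO the Hey1 levels were 176 against 15.9 UPM. Of the receptor genes, Notch1 stood at 57.7 against 41.4 UPM in Ctrl and Notch4, an endothelial Notch receptor, at 21.0 against 8.37 UPM, log2 ratios of 0.48 and 1.33. At equal depth 66.7% of Dll4-positive and 16.2% of Dll4-negative Ctrl cells had a Hey1 UMI, while Notch1 was seen in 35.0% and 34.8%.

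The Dll4-positive cells held more UMIs of genes known from arteries, and in Ctrl fewer of some genes known from veins. Gap junction genes stood at 104 against 7.60 UPM (Gja4) and 40.1 against 0.620 UPM (Gja5) in Ctrl, the ephrin Efnb2 at 57.7 against 17.2 UPM and the guidance receptor Unc5b at 40.1 against 7.60 UPM. The venous regulator Nr2f2 stood at 53.3 against 114 UPM and Nrp2 at 56.7 against 142 UPM. The other venous genes lay closer together in Ctrl, with log2 ratios of -0.46 (Aplnr), -0.39 (Ephb4) and -0.27 (Flt4), and the intervals of Ephb4 and Flt4 hold 0. In cKO, Gja4 stood at 129.8 against 5.83 UPM, Nr2f2 at 53.5 against 136 UPM and Nrp2 at 42.0 against 162 UPM, while Aplnr (-0.18), Flt4 (-0.06) and Ephb4 (0.18) had intervals that hold 0. The genotype ratio of Hey1 was -0.18 (interval -0.65 to 0.26) among cells with Dll4 and -0.67 (interval -1.28 to -0.10) among cells without. That of Nrarp, a target that feeds back on the Notch complex, was -1.14 (interval -2.61 to 0.04) and -1.15 (interval -1.75 to -0.59).

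**Figure D4:**
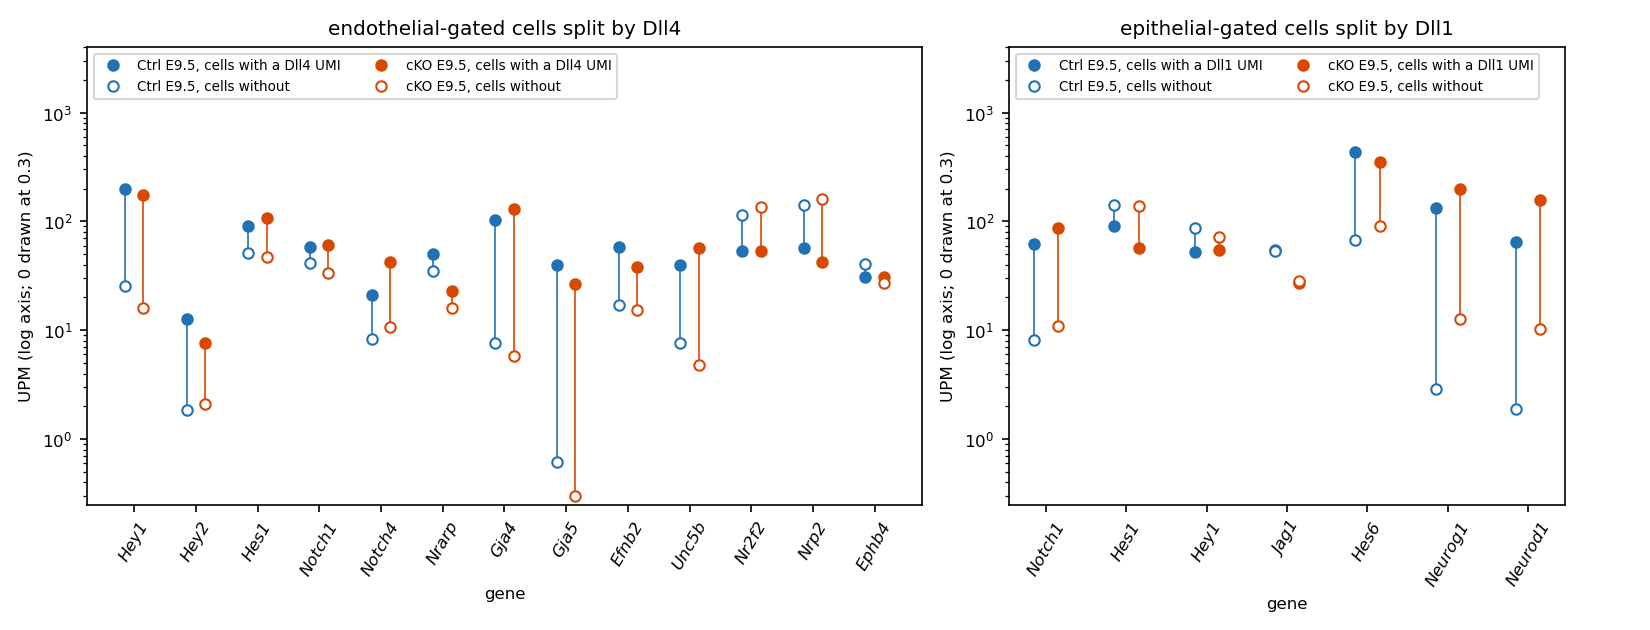
Level (UPM, log axis, 0 drawn at 0.3) of named genes in endothelial cells with (filled) and without (open) a Dll4 UMI, and in epithelial cells with and without a Dll1 UMI, at E9.5; no intervals are drawn. Hey1 and the arterial genes Gja4 and Gja5 lie higher in cells with Dll4 in both libraries, and Notch1, Neurog1 and Neurod1 lie higher in cells with Dll1.

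Epithelial cells with a Dll1 UMI were 29 of 740 in Ctrl E9.5 (3.92%, interval 2.64 to 5.58) and 18 of 193 in cKO E9.5 (9.33%, interval 5.62 to 14.3). They held Notch1 at 61.3 against 8.18 UPM in Ctrl and 86.6 against 10.8 UPM in cKO, and Hes1 at 91.1 against 141 UPM and 56.8 against 139.8 UPM. The neurogenic factor Neurog1, a marker of the neuroblast gate and not of the epithelial one, stood at 131 against 2.90 UPM in Ctrl and 200.3 against 12.6 UPM in cKO, and Hes6, which promotes neurogenesis, at 436 against 67.8 UPM in Ctrl. Dll1 went with more Notch1 and less Hes1 in these cells, and Jag1 levels lay close together, at 54.3 against 53.4 UPM in Ctrl.

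Epithelial cells with a Jag1 UMI, 305 of 740 in the Ctrl and 55 of 193 in the cKO library of E9.5, held Hey1 at 106 against 68.4 UPM in Ctrl and 109 against 53.6 UPM in cKO, and Notch2 at 19.7 against 13.3 UPM in Ctrl. Mesenchymal cells with a Heyl UMI, 202 of 2176 and 262 of 3164, held Hey1 at 63.7 against 26.2 UPM and 49.5 against 18 UPM, Jag1 at 24.7 against 11 UPM and 18.5 against 11.4 UPM, and Notch1 at 20.6 against 11.1 UPM and 17.5 against 8.30 UPM. Notch3 in them stood at 14.6 against 13.2 UPM in Ctrl. Hey1 within the mesenchyme was lower in cKO in cells with Heyl, at -0.36 (interval -0.63 to -0.10), and in cells without, at -0.54 (interval -0.68 to -0.41).

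At equal depth, a UMI of at least 1 of the 3 ligands was seen in 21.1% of Ctrl E9.5 endothelial cells, of a receptor in 40.7% and of both in 9.79%, and in cKO E9.5 these were 18.1%, 40.0% and 6.67%. Epithelial cells had a ligand in 33.6%, a receptor in 33.3% and both in 12.8% of Ctrl cells, and in 25.7%, 41.7% and 13.4% of cKO cells. BrM cells of Ctrl E9.5 had a ligand in 16.4% and a target in 62.1%, and those of cKO E9.5 in 25.3% and 52.8%. Ligand-positive cells were more frequent, and target-positive cells less frequent, in the cKO library for BrM cells, and these shares carry no test.

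The other genes of the pathway were counted on a list of 46 (ligands, receptors, targets, glycosyltransferases, nuclear complex, proteases and regulators). Over all E9.5 cells 45 were counted, and 0 were changed upward and 5 downward, with a median log2 ratio of -0.29 against -0.26 for all genes. Of all counted genes 13.4% were changed in the same cells, 9.80% downward, so the count of 5 lies near the background. The 5 were the target gene Nrarp (10.0 and 3.60 UPM, ratio -1.47), the Hes family genes Hes5 (4.35 and 1.94 UPM, -1.16) and Hes3 (-1.54), the glycosyltransferase Lfng, which modifies Notch receptors (6.10 and 2.06 UPM, -1.56), and the ubiquitin ligase gene Dtx4 (-1.37). Cell composition and level cannot be told apart in these sums over all cells. In endothelial cells 35 had enough UMIs to be counted, with 1 changed upward (Jag2, 1.5) and 3 downward: Nrarp (38.8 and 16.8 UPM, -1.21), Dtx3 (-1.22) and Maml3 (-1.09). The median was -0.18 against -0.19 for all genes, of which 8.66% were changed.

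In endothelial cells 9 arterial genes were counted at E9.5, with 0 changed upward and 1 downward. This was Gja5, at 10.1 UPM (86 UMIs) in Ctrl and 3.26 UPM (7 UMIs) in cKO, a ratio of -1.64 (interval -2.99 to -0.53). Their median was -0.54 against -0.19 for all genes, while that of 5 venous genes was 0.05 with 0 changed, beside 8.66% of all genes. In E8.5 endothelial cells the arterial list had 7 counted, 2 changed upward (Sox18, 1.05, and Unc5b, 1.66) and a median of 0.82 against 0.05 for all genes, of which 5.9% were changed. The venous list was also high there, with 5 counted, 0 changed and a median of 0.59. Of the pathway list 26 were counted there, 2 changed upward (Dlk1, 1.12, and Pofut1, 1.04) and 2 downward (Mfng, -1.20, and Adam17, -1.13). Between the stages in Ctrl, 11 of 45 pathway genes counted over all cells were changed upward and 1 downward, where 20.8% of all genes were changed and 17.9% upward, with Nrarp at 3.09 and 10.0 UPM and the glycosyltransferase Mfng at 1.43 and 8.95 UPM.

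Across the 33 combinations of group and library with at least 30 cells, which share libraries and so are not independent, the levels of Dll1 and Notch1, as log2(UPM + 10), had a Pearson's r of 0.73 and those of Dll4 and Notch1 0.68. Jag1 and Notch1 had -0.59 and Dll4 and Notch2 -0.57. Of the genes with at least 200 UMIs, those most like Dll4 were the endothelial protocadherin Pcdh12 (0.96), Adora2a (0.95) and Myct1 (0.95). Those most like Jag1 were Bmp7 (0.85), Tbx2 (0.84) and Plekha7 (0.84), and those most like Notch1 were Galnt18 (0.87), Fgd5 (0.83) and Coro2b (0.83). For Hey1 they were Rnf125 (0.80), Pdgfa (0.78) and Zfp467 (0.78), for Dll1 Npdc1 (0.86), Wscd1 (0.86) and Mfng (0.85), and for Notch2 Akap7 (0.84), Sssca1 (0.82) and Fst (0.81). Hes1 (Adk, 0.74), Hey2 (Foxk1, 0.75), Notch3 (Rcn2, 0.78) and Heyl (Crym, 0.78, itself a marker of the mesenchyme gate) had less close neighbours.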

How the data were processed

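Each library is single-cell RNA-seq made with a 10x Genomics 3′ kit from GFP-positive, DAPI-negative cells sorted after trypsin-EDTA digestion. The authors deposited a filtered matrix of UMI counts per gene and cell for each library, not normalized. The submitters' processing notes name Cell Ranger 3.1.0 and mm10, and matrix headers name version 3.0.2. The gene tables of the libraries were joined on 27514 shared Ensembl IDs, and 99.4% to 99.9% of a library's UMIs fell on these. Library totals over shared genes were 25236185, 25733964, 94273154 and 104635590 UMIs in the order Ctrl E8.5, cKO E8.5, Ctrl E9.5 and cKO E9.5.

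All deposited barcodes were kept. A cell joined 1 of 12 gates when enough of its markers had a UMI (3 to 7 by gate). Where several were reached, the endothelial, cardiomyocyte, epithelial, neuroblast, neural progenitor and neural crest gates went before the other gates. Within each of these sets of gates, the one with the largest share of its own markers was taken, and tied cells were left out. The numbers of markers were set after marker counts were seen, and the gates are not the clusters of the study. No doublet caller was run. Leaving out cells that reached several gates, or the 5% of cells of highest UMI total, stands in for it. UMIs were summed per gate and library. Each group is 1 library, so no test was made, and intervals (95%, exact) and floors (3 UMIs) cover counting error only. For a sum of 0 the ratio is a bound against the floor. For shares of cells, each cell was thinned to 10000 UMIs, without the cells that held fewer. All 10 members are named in the groups with 30 or more cells. Other pathway genes are named where they have 20 UMIs and lie 2-fold off over all cells or in endothelial cells. Genes of the split endothelial and epithelial cells were picked after their values were seen, as were the counts of immediate early genes. The members, lists and markers were chosen with earlier results of these data known. The alternatives were other marker numbers, gating after thinning, TMM factors (edgeR 4.0.16, R 4.3.3), median-of-ratios factors, a cell filter, no top cells, 1 gate per cell and means over cells. The ratio and interval code was tested on simulated data. Python 3.11.15 with numpy 2.4.6, scipy 1.17.1 and pandas 2.3.3 was used.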

Additional observations from a re-analysis of the deposited data

Results flagged for a closer look

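Several genes moved in opposite directions in different groups of cells, or at the 2 stages in the same group, with intervals for counting error that lie on either side of 0. None of these differences was tested, since each genotype and stage is 1 library.

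Jag1 at E9.5 had a log2 ratio of cKO to Ctrl of -1.10 in pSHF cells, -0.93 in epithelial cells and -0.82 in Arg1/Rdh10/Vamp8 cells, but 1.10 in BrM cells. Between the stages in Ctrl, Jag1 had a ratio of E9.5 to E8.5 of -1.90 in endothelial cells, -0.81 in BrM cells and -0.47 in mesenchyme, but 0.68 in cardiomyocytes, 1.02 in Arg1/Rdh10/Vamp8 cells and 1.31 in aSHF cells.

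Notch1 at E9.5 had a ratio of cKO to Ctrl of -0.41 in mesenchyme and 0.82 in epithelial cells.

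Notch2 was lower in cKO at E8.5 and higher at E9.5 in endothelial cells, BrM cells and mesenchyme. The ratio of cKO to Ctrl was -1.25 at E8.5 and 0.95 at E9.5 in endothelial cells, -1.38 and 0.69 in BrM cells, and -0.52 and 0.42 in mesenchyme. Over the alternatives the E8.5 ratio reached -0.84 in endothelial cells and -0.09 in mesenchyme. The ratios at E8.5 and E9.5 were -0.25 and 0.64 in Arg1/Rdh10/Vamp8 cells, and 0.05 and -0.45 in aSHF cells, which went the other way.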

How the results depend on the processing

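The count of gene and group pairs past 2-fold between cKO and Ctrl at E8.5 was 5 of 35, and it was 2 with 1 marker fewer per gate, 2 with 1 marker more, 9 without cells that reach several gates and 8 without the filter on low counts. Jag1 between the stages in Arg1/Rdh10/Vamp8 cells turned from 1.02 to -0.15 without cells that reach several gates. The counts at E9.5 (11 of 61) and between the stages (15 of 45) lay at 8 to 14 and at 11 to 18. The number of pairs counted differed between settings, so these counts do not all share the denominators of 35, 61 and 45. The share of all genes changed was not computed for each setting. Of single ratios, 22 of 171 changed sign with TMM factors, 23 of 171 with median-of-ratios factors, 17 of 161 with 1 marker fewer, 13 of 150 without cells that reach several gates and 0 of 171 with the filter on cells. No paired analysis was possible because each group is 1 library, and for the same reason no replicate could be left out. Depth limits Dll1, Dll4, Hey2 and Heyl at E8.5, where most groups held few of their UMIs.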
